A study of Mus musculus with 8 samples.

Results

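Endothelial identity genes are genes whose products build the lining of blood and lymph vessels or govern its growth and permeability. The list held 36 genes taken for their known role in vessels, with no threshold on their values. Each had exactly 1 row among the 24625 rows of the table, which carried 19836 distinct gene symbols. The genes were read in neutrophil preparations, and a bulk value does not say which cells of a preparation made the RNA.

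Lung neutrophils had been collected from wild type mice aged 6-12 weeks by the labels. Methods of the study name female C57BL/6J animals and give a narrower range of ages. In the SP group (n = 4) the mice had received Streptococcus pneumoniae, a bacterium that causes pneumonia, down the trachea into the left lung, and in the PBS group (n = 4) phosphate-buffered saline at the same volume of 2.3 µl per g of body weight. Lungs were taken 24 h later, perfused and digested with enzymes, and cells that bound magnetic beads through an antibody to Ly6G, a neutrophil surface protein, were kept. Every sample was read on its own Affymetrix Mouse Gene 1.1 ST array. The values are log2 intensities, so a difference of 1 is a 2-fold change, and they can be compared between samples for 1 gene but not between genes. The purity of the cells was judged under the microscope in pneumonia samples only, by the study's methods. There the study reports high purity, with few contaminants that usually looked like alveolar macrophages and rarely like eosinophils. It also reports high Ly6g mRNA in all samples. The study describes its samples as each taken from a mouse, while the labels give only replicate numbers, and p-values measure the spread between these samples.

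Endothelial cells hold each other by junctions made of VE-cadherin and claudin-5, and they depend on receptor kinases for vascular endothelial growth factor (VEGF) and for angiopoietins. A second system, the ALK1 receptor with endoglin and BMPR2, reads the circulating ligands BMP9 and BMP10 and keeps vessels quiescent. Transcription factors of the ETS family, such as ERG, and of the SOX family turn on many of these genes. Lung capillaries carry further marks, among them carbonic anhydrase 4 and the endothelin receptor EDNRB.

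Because ETS factors act on short DNA elements with the core GGAA, the promoters of the members were read from RefSeq (GRCm38.p6). A window was at hand for 19 of the 36 members, and the 250 bases before the transcription start were searched on both strands. Some genes had several windows (24 for the 19 members), and a gene counted if any of its windows held the letters. The letters AGGAAG occurred in 11 of these 19 members (57.9%) and in 32.3% of 27025 genes with a window. The longer ETS-type motif CCGGAAG, which does not contain AGGAAG, occurred in 1 of 19 (5.26%), that of Car4, and in 7.83% of all genes. The SOX-type motif ACAAAG occurred in 4 of 19 (21.1%) and in 18.6% of all genes, the GATA-type motif AGATAA in 1 of 19 (5.26%) against 11.4%, and the E-box CACGTG in 0 of 19 against 6.86%. These are counts of letters, and a match is not a binding site. Members with AGGAAG were Bmpr2, Calcrl, Cd34, Egfl7, Emcn, Eng, Erg, Flt1, Rasip1, Robo4 and Tie1, so the letters were present both in genes that were called lower and in genes that were not called. The last 120 bases before the start are printed 5′ to 3′ for 6 of them, so that genes called lower (Flt1, Calcrl, Emcn and Egfl7) can be read beside genes not called (Eng and Robo4). Of the several windows of Egfl7, the one with the most matches is printed. Capitals mark AGGAAG or its reverse complement CTTCCT.
Flt1 (chr5:147726012-147726131, minus strand): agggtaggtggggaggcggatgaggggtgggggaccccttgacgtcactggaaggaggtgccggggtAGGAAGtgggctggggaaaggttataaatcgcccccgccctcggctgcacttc
Calcrl (chr2:84425267-84425386, minus strand): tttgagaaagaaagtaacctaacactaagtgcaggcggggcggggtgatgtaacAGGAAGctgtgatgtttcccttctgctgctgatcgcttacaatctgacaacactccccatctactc
Eng (chr2:32646475-32646594, plus strand): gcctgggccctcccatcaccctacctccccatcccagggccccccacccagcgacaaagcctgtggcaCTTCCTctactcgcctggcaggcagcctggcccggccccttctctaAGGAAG
Emcn (chr3:137340958-137341077, plus strand): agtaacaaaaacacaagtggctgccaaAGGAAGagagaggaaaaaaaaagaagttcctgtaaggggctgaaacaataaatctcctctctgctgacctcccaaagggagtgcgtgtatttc
Egfl7 (chr2:26580963-26581082, plus strand): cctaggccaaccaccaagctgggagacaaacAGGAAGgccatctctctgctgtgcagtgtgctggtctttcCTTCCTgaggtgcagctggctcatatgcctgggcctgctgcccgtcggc
Robo4 (chr9:37401852-37401971, plus strand): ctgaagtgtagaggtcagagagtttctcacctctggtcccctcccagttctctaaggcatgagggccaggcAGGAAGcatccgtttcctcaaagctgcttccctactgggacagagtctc

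Neutrophil markers were high in all preparations, and vessel genes were well above background beside them. The 7 neutrophil markers with a named row (S100a8, S100a9, Retnlg, Csf3r, Cxcr2, Mmp8 and Mmp9) lay between 11.91 and 13.45 on all arrays. Y-linked genes, which female mice lack, lay between 4.33 and 4.90 and give the level of background. Prox1 was the only member at that level, and 35 of 36 members had a mean at or above the median row mean of 6.07. Array medians were 6.06 to 6.20 in PBS and 5.78 to 5.91 in SP, and the median SP minus PBS difference over all rows was 0.10. Arrays of a group correlated across rows at 0.970 or more, and no pair of arrays was identical.

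The question put to the list was how far vessel transcripts differed between preparations from infected and from control lungs. Most of them were lower in SP. By limma, 25 of 36 members were called lower (22.6% of all rows were), 1 was called higher (21.5% of all rows) and 10 were not called, where called means an adjusted p of at most 0.05. Calls in either direction covered 44.1% of all rows. A fall of at least 2-fold was called in 20 members (11.3% of all rows) and a rise of that size in 0 (6.37% of all rows). The 4 SP values lay entirely below the 4 PBS values in 26 members (21.8% of all rows), entirely above them in 0 (27.2% of all rows), and overlapped in 10. The median difference over the members was -1.14, and 33 of the 36 lay below the median of all rows.

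The counts depended on the scaling of the arrays. When arrays were instead set equal on the neutrophil markers, which moves the median difference of all rows to 0.49, 15 members were called lower, 11 of them by at least 2-fold, and the median difference was -0.75. The share of all rows called lower with this scaling is not given here, so the count of 15 has no background beside it. The 10 members that lost the call were Cdh5, Esam, Emcn, Podxl, Flt1, Flt4, Bmpr2, Ramp2, Erg and Egfl7, with adjusted p from 0.0727 to 0.255. Leaving out 1 array at a time gave 19 to 26 members called lower. Without PBS replicate 1 the calls of Emcn, Podxl, Flt1, Flt4, Ramp2 and Erg were lost, with adjusted p from 0.0509 to 0.0818. Emcn, Podxl, Ramp2 and Erg also lost it without SP replicate 1, Podxl and Ramp2 without PBS replicate 2, and Flt4 and Erg without SP replicate 2.

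**Figure D1:**
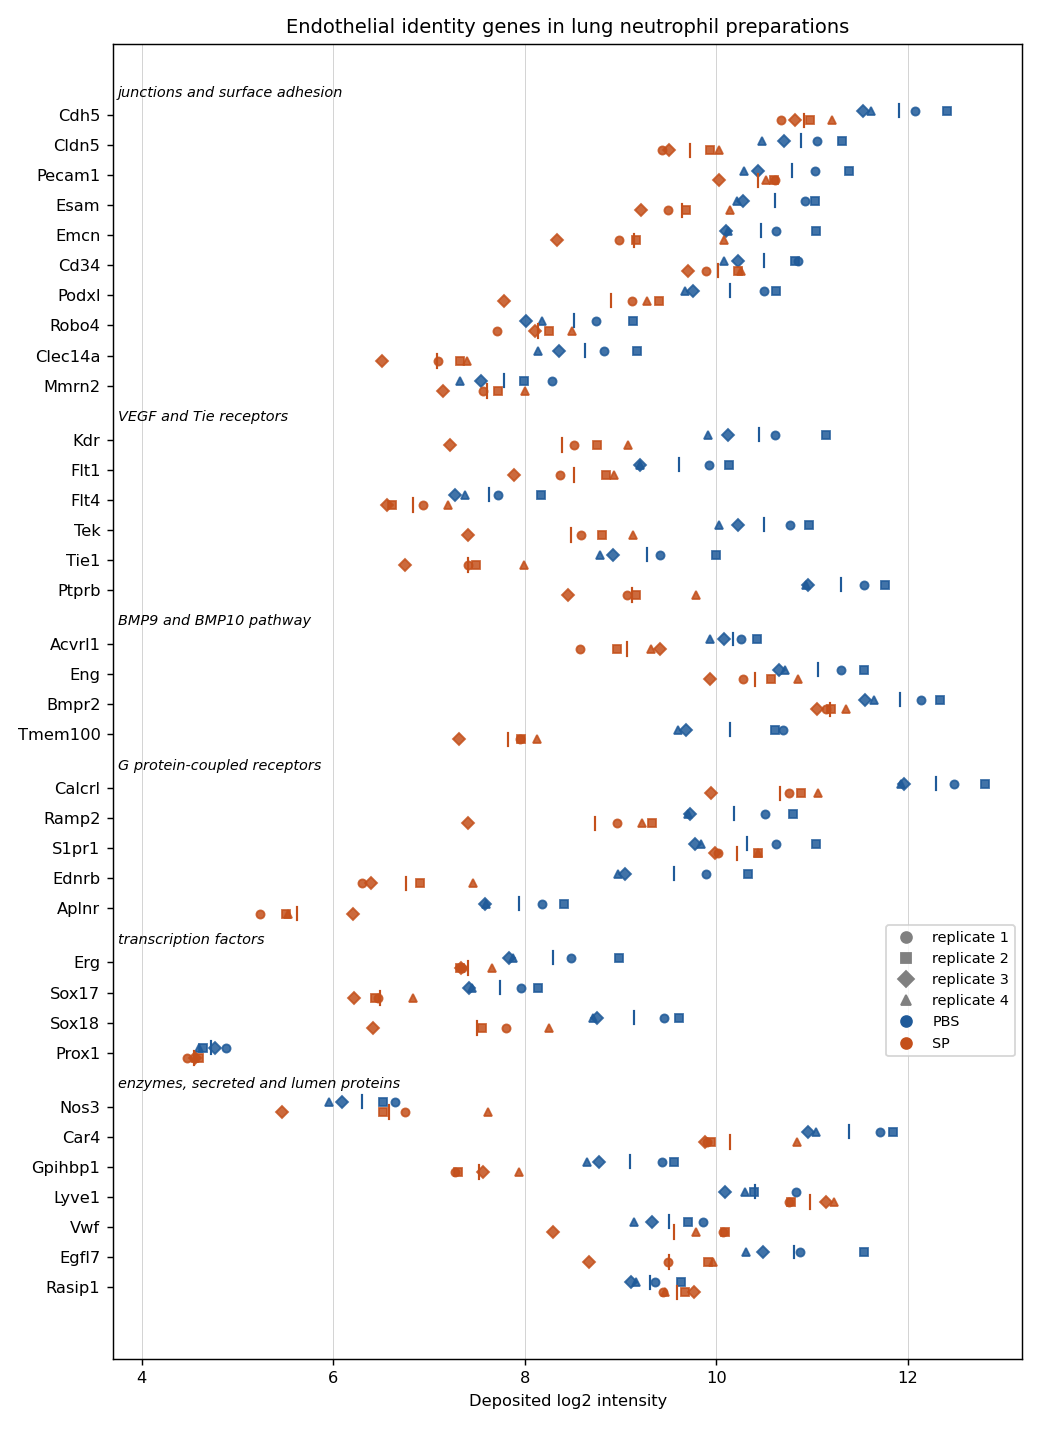
Deposited log2 intensity (x axis) of the 36 endothelial genes (y axis, by role) on each of the 8 arrays, with PBS in blue and SP in orange, a symbol for each replicate number and a vertical bar at each group mean. SP points lie left of all PBS points in 26 genes, and Prox1 sits between 4.47 and 4.88, about the level of background.

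**Figure D2:**
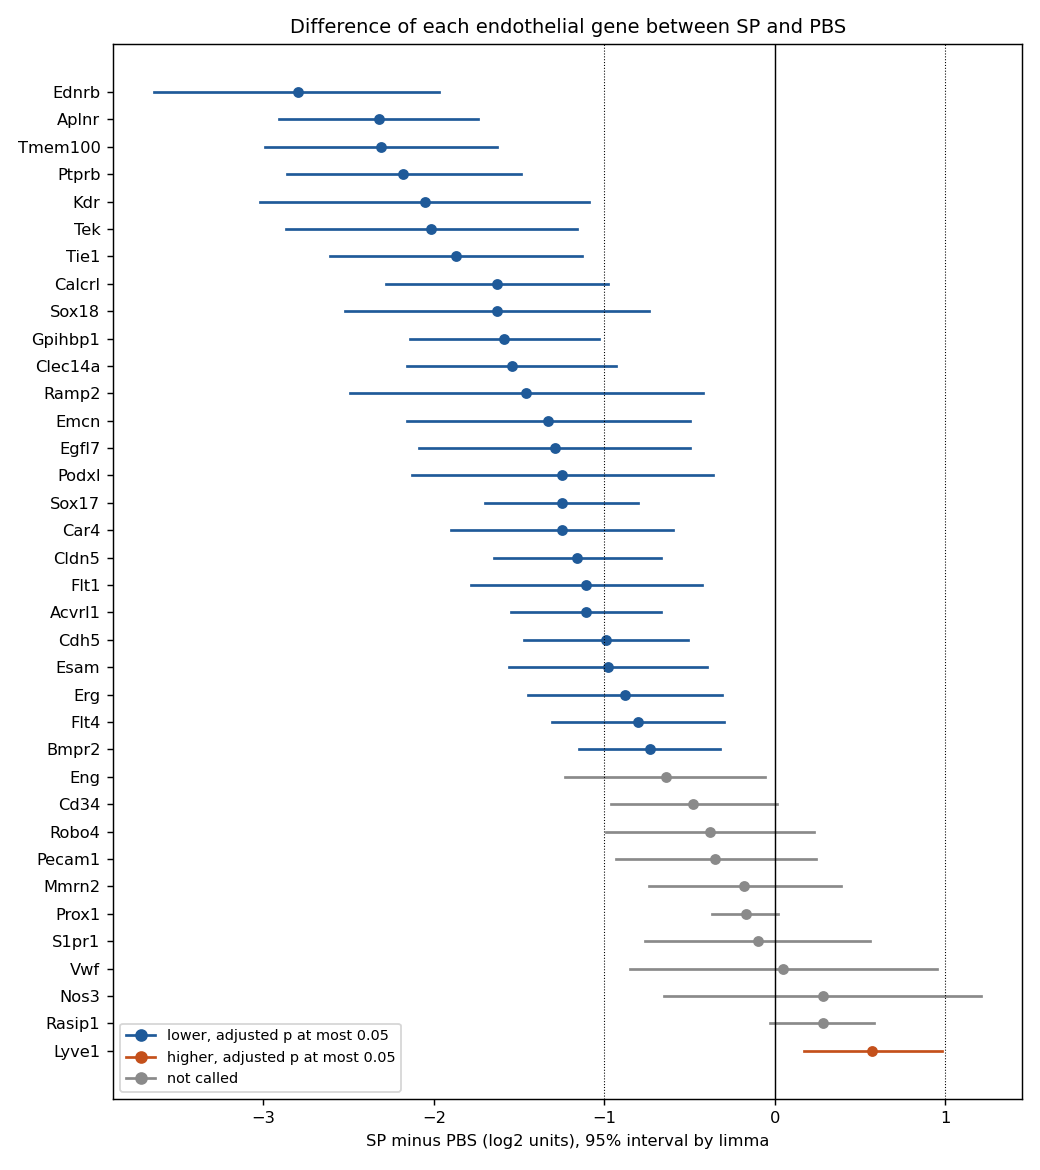
SP minus PBS difference in log2 units (x axis) of each endothelial gene (y axis), ordered by size, with 95% intervals from limma and dotted lines at a 2-fold change. The differences run from -2.80 for Ednrb to 0.57 for Lyve1, and 25 are called lower.

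Junction and surface adhesion genes were called lower in SP in 6 of 10 cases (22.6% of all rows), with a median of -0.98. Cdh5, which encodes VE-cadherin, the adherens junction protein of endothelium, lay at 12.08, 12.41, 11.53 and 11.62 in PBS replicates 1 to 4 and at 10.68, 10.98, 10.82 and 11.21 in SP replicates 1 to 4. All SP values were below all PBS values, a difference of -0.99 ± 0.21 (SE), which is 1.98-fold lower, adjusted p = 0.00583. Clec14a, a C-type lectin-like surface protein of vessel lining, had the largest fall of the group, lying at 8.83, 9.17, 8.36 and 8.14 in PBS replicates 1 to 4 and at 7.09, 7.32, 6.51 and 7.40 in SP replicates 1 to 4. It differed by -1.54 ± 0.27 (SE), which is 2.92-fold lower, adjusted p = 0.00214, with a gap between the groups. Emcn, the sialomucin endomucin, lay at 10.63, 11.04, 10.10 and 10.12 in PBS replicates 1 to 4 and at 8.99, 9.16, 8.34 and 10.08 in SP replicates 1 to 4. SP replicate 4 nearly reached the lowest PBS array, and the difference was -1.33 ± 0.36 (SE), which is 2.51-fold lower, adjusted p = 0.019. Podxl, the sialomucin podocalyxin of the luminal surface, lay at 10.50, 10.63, 9.76 and 9.68 in PBS replicates 1 to 4 and at 9.12, 9.40, 7.78 and 9.28 in SP replicates 1 to 4. Its difference was -1.25 ± 0.39 (SE), which is 2.37-fold lower, adjusted p = 0.0309, and SP replicate 3 stood below the other SP arrays. The study reports a larger fall of Podxl during pneumonia, and why both values differ was not tested. Cldn5, the tight junction claudin of vessels, differed by -1.16 ± 0.21 (SE), which is 2.24-fold lower, adjusted p = 0.0029, and Esam, an adhesion molecule of endothelium and platelets, by -0.98 ± 0.25 (SE), which is 1.97-fold lower, adjusted p = 0.0147.

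The other 4 genes of that group were not called and their groups overlapped. Pecam1, an adhesion molecule that neutrophils and platelets carry as well, lay at 11.03, 11.39, 10.44 and 10.29 in PBS replicates 1 to 4 and at 10.62, 10.60, 10.03 and 10.52 in SP replicates 1 to 4. PBS replicates 1 and 2 were the highest arrays and PBS replicates 3 and 4 lay among the SP values (-0.35, 95% interval -0.93 to 0.24, adjusted p = 0.275). Cd34, a sialomucin shared with blood stem cells, lay at 10.86, 10.82, 10.23 and 10.08 in PBS replicates 1 to 4 and at 9.89, 10.23, 9.71 and 10.26 in SP replicates 1 to 4 (-0.48, 95% interval -0.96 to 0.01, adjusted p = 0.098). Robo4, a roundabout receptor that steadies vessel barriers, lay at 8.75, 9.13, 8.01 and 8.18 in PBS replicates 1 to 4 and at 7.71, 8.25, 8.11 and 8.49 in SP replicates 1 to 4 (-0.38, 95% interval -0.99 to 0.23, adjusted p = 0.255). Mmrn2, a matrix protein that binds CLEC14A, lay at 8.29, 7.99, 7.54 and 7.32 in PBS replicates 1 to 4 and at 7.56, 7.72, 7.15 and 8.00 in SP replicates 1 to 4 (-0.18, 95% interval -0.74 to 0.39, adjusted p = 0.556). Mmrn2 thus had an interval that reached 0.39 while the receptor it binds was 2.92-fold lower. Whether both genes differed in their response was not tested.

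The receptors for VEGF and angiopoietins were the most uniform group in the main fit. All 6 members were called lower (22.6% of all rows), 5 by at least 2-fold (11.3% of all rows), none with overlapping groups, and their median was -1.94. Flt1 and Flt4 lost the call with arrays set equal on the neutrophil markers and without PBS replicate 1. Ptprb, the vascular phosphatase that acts on TIE2 and VE-cadherin, lay at 11.54, 11.76, 10.96 and 10.94 in PBS replicates 1 to 4 and at 9.07, 9.16, 8.45 and 9.79 in SP replicates 1 to 4. Every SP array was over 1 unit below the lowest PBS array, and the difference was -2.18 ± 0.30 (SE), which is 4.52-fold lower, adjusted p = 0.000641. Kdr, the main signalling receptor for VEGF-A, lay at 10.61, 11.15, 10.12 and 9.91 in PBS replicates 1 to 4 and at 8.52, 8.76, 7.22 and 9.08 in SP replicates 1 to 4. SP replicate 3 was the lowest array and the difference was -2.05 ± 0.42 (SE), which is 4.15-fold lower, adjusted p = 0.0051. Tek, the angiopoietin receptor TIE2, lay at 10.77, 10.97, 10.23 and 10.03 in PBS replicates 1 to 4 and at 8.59, 8.81, 7.41 and 9.13 in SP replicates 1 to 4, with the same order among the SP arrays. Its difference was -2.02 ± 0.37 (SE), which is 4.05-fold lower, adjusted p = 0.00304. Tie1, the partner of TIE2, differed by -1.87 ± 0.32 (SE), which is 3.66-fold lower, adjusted p = 0.00212. Flt1, which binds VEGF-A and placental growth factor and is also made by monocytes, differed by -1.11 ± 0.30 (SE), which is 2.15-fold lower, adjusted p = 0.0172. Flt4, the receptor for VEGF-C and VEGF-D that marks lymphatic vessels, had the smallest difference here, -0.80 ± 0.22 (SE), which is 1.75-fold lower, adjusted p = 0.0195.

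In the BMP9 and BMP10 pathway, 3 of 4 genes were called lower (22.6% of all rows), with a median of -0.92. Tmem100, a membrane protein induced by ALK1 signalling, lay at 10.70, 10.61, 9.69 and 9.60 in PBS replicates 1 to 4 and at 7.95, 7.96, 7.31 and 8.13 in SP replicates 1 to 4. The PBS mean of 10.15 ± 0.58 and the SP mean of 7.83 ± 0.36 (SD, n = 4) were far apart, with a difference of -2.31 ± 0.30 (SE), which is 4.97-fold lower, adjusted p = 0.000454. Acvrl1, which encodes ALK1 itself, lay at 10.26, 10.43, 10.08 and 9.94 in PBS replicates 1 to 4 and at 8.58, 8.96, 9.41 and 9.32 in SP replicates 1 to 4. SP replicates 1 and 2 were the lowest arrays, in contrast to most members, and the difference was -1.11 ± 0.19 (SE), which is 2.16-fold lower, adjusted p = 0.00227. Bmpr2, the type II receptor of the pathway, which many cell types make, lay at 12.14, 12.34, 11.55 and 11.65 in PBS replicates 1 to 4 and at 11.15, 11.20, 11.05 and 11.36 in SP replicates 1 to 4. Its difference was -0.73 ± 0.18 (SE), which is 1.66-fold lower, adjusted p = 0.0124, and it was -0.34 (adjusted p = 0.255) with arrays set equal on the neutrophil markers. Eng, the co-receptor endoglin, lay at 11.30, 11.54, 10.66 and 10.72 in PBS replicates 1 to 4 and at 10.28, 10.57, 9.94 and 10.86 in SP replicates 1 to 4. SP replicate 4 exceeded PBS replicates 3 and 4, and Eng was not called (-0.64, 95% interval -1.23 to -0.06, adjusted p = 0.0701). Without SP replicate 4 it was called, at -0.79 (adjusted p = 0.0393).

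Among G protein-coupled receptors and their partner, 4 of 5 genes were called lower (22.6% of all rows), all by at least 2-fold (11.3% of all rows). The group held the 2 largest differences of the list. Ednrb, the endothelin B receptor, lay at 9.89, 10.33, 9.05 and 8.98 in PBS replicates 1 to 4 and at 6.30, 6.91, 6.39 and 7.46 in SP replicates 1 to 4. The means were 9.56 ± 0.66 and 6.76 ± 0.53 (SD, n = 4), a difference of -2.80 ± 0.36 (SE), which is 6.97-fold lower, adjusted p = 0.000489. Aplnr, the apelin receptor, lay at 8.18, 8.41, 7.59 and 7.60 in PBS replicates 1 to 4 and at 5.24, 5.51, 6.21 and 5.53 in SP replicates 1 to 4. In contrast to most members its highest SP value was in replicate 3, and 3 of its SP values were close to the background of Y-linked genes. The difference was -2.32 ± 0.26 (SE), which is 5.01-fold lower, adjusted p = 0.000206. Calcrl, which with the partner RAMP2 forms the adrenomedullin receptor, lay at 12.49, 12.81, 11.96 and 11.93 in PBS replicates 1 to 4 and at 10.76, 10.89, 9.95 and 11.06 in SP replicates 1 to 4. It differed by -1.63 ± 0.28 (SE), which is 3.1-fold lower, adjusted p = 0.00216. Ramp2 differed by -1.46 ± 0.45 (SE), which is 2.75-fold lower, adjusted p = 0.0308. S1pr1, the sphingosine-1-phosphate receptor that tightens vessel barriers and that lymphocytes carry as well, lay at 10.63, 11.04, 9.78 and 9.84 in PBS replicates 1 to 4 and at 10.02, 10.44, 9.99 and 10.44 in SP replicates 1 to 4. PBS replicates 3 and 4 lay below every SP array and PBS replicates 1 and 2 above all of them (-0.10, 95% interval -0.76 to 0.56, adjusted p = 0.772).

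All 4 transcription factors had SP values wholly below their PBS values (Prox1 by less than the rounding), as had 21.8% of all rows, and 3 were called lower (22.6% of all rows). Sox18, a factor of developing and regrowing vessels, lay at 9.46, 9.61, 8.76 and 8.71 in PBS replicates 1 to 4 and at 7.80, 7.55, 6.42 and 8.25 in SP replicates 1 to 4. SP replicate 3 was far below the others, and the difference was -1.63 ± 0.39 (SE), which is 3.1-fold lower, adjusted p = 0.0103. Sox17, which acts in arterial endothelium, lay at 7.96, 8.14, 7.42 and 7.45 in PBS replicates 1 to 4 and at 6.47, 6.44, 6.22 and 6.83 in SP replicates 1 to 4 and had a tighter spread. It differed by -1.25 ± 0.20 (SE), which is 2.38-fold lower, adjusted p = 0.00131. Erg, an ETS factor largely restricted to endothelium, lay at 8.48, 8.99, 7.84 and 7.88 in PBS replicates 1 to 4 and at 7.35, 7.32, 7.33 and 7.66 in SP replicates 1 to 4. SP replicate 4 stood above the other SP arrays, which were nearly alike, and the difference was -0.88 ± 0.25 (SE), which is 1.84-fold lower, adjusted p = 0.0216. Prox1, the master factor of lymphatic endothelium, lay at 4.88, 4.64, 4.76 and 4.60 in PBS replicates 1 to 4 and at 4.47, 4.60, 4.56 and 4.56 in SP replicates 1 to 4. These values are at background, so the lymphatic factor was not detectable above it, and the difference says nothing of lymphatic vessels (-0.17, 95% interval -0.37 to 0.02, adjusted p = 0.114).

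The enzymes and the secreted and luminal proteins were the least uniform group, with a median of 0.05. Of them, 3 were called lower (22.6% of all rows), 1 was called higher (21.5% of all rows) and 3 were not called. Gpihbp1, the capillary protein that carries lipoprotein lipase to the lumen, lay at 9.43, 9.56, 8.78 and 8.65 in PBS replicates 1 to 4 and at 7.27, 7.30, 7.56 and 7.94 in SP replicates 1 to 4. The groups were apart and the difference was -1.59 ± 0.24 (SE), which is 3.0-fold lower, adjusted p = 0.00111. Car4, carbonic anhydrase 4 of lung capillaries, which some macrophages also express, lay at 11.71, 11.85, 10.96 and 11.04 in PBS replicates 1 to 4 and at 9.90, 9.95, 9.88 and 10.84 in SP replicates 1 to 4. SP replicate 4 was close to the lowest PBS array, and the difference was -1.25 ± 0.28 (SE), which is 2.38-fold lower, adjusted p = 0.00797. Egfl7, a secreted factor of growing vessels, lay at 10.88, 11.54, 10.49 and 10.31 in PBS replicates 1 to 4 and at 9.50, 9.91, 8.67 and 9.97 in SP replicates 1 to 4. It differed by -1.29 ± 0.35 (SE), which is 2.45-fold lower, adjusted p = 0.0175.

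Lyve1, a hyaluronan receptor of lymphatic vessels and of some tissue macrophages, was the only member called higher, at 10.83, 10.40, 10.09 and 10.30 in PBS replicates 1 to 4 and at 10.76, 10.78, 11.15 and 11.23 in SP replicates 1 to 4. The groups overlapped, since PBS replicate 1 exceeded SP replicates 1 and 2, and the difference was 0.57 ± 0.18 (SE), which is 1.49-fold higher, adjusted p = 0.0312. The call was lost on leaving out any of 5 arrays, namely PBS replicate 2 (adjusted p = 0.0628), PBS replicate 3 (0.0718), PBS replicate 4 (0.0761), SP replicate 3 (0.0657) or SP replicate 4 (0.0676). Vwf, von Willebrand factor, which endothelium and platelets store, lay at 9.86, 9.71, 9.33 and 9.14 in PBS replicates 1 to 4 and at 10.07, 10.09, 8.30 and 9.79 in SP replicates 1 to 4. SP replicates 1 and 2 were the highest arrays and SP replicate 3 the lowest of all 8 (0.05, 95% interval -0.85 to 0.95, adjusted p = 0.919). Nos3, the endothelial nitric oxide synthase, lay at 6.65, 6.52, 6.09 and 5.96 in PBS replicates 1 to 4 and at 6.75, 6.52, 5.46 and 7.62 in SP replicates 1 to 4, and its SP values spread over more than 2 units (0.28, 95% interval -0.65 to 1.21, adjusted p = 0.571). Rasip1, a RAS-interacting protein needed for vessel lumens, lay at 9.36, 9.63, 9.11 and 9.16 in PBS replicates 1 to 4 and at 9.44, 9.68, 9.77 and 9.47 in SP replicates 1 to 4 (0.28, 95% interval -0.03 to 0.58, adjusted p = 0.12). Rasip1 was called higher when arrays were centred on their medians (0.56, adjusted p = 0.00592) or set equal on the neutrophil markers (0.66, adjusted p = 0.0123), and without PBS replicate 2 (0.38, adjusted p = 0.0364).

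A set of 10 members also known in blood cells or macrophages was put apart. The set need not be complete, and some of the other 26 may be made by such cells too. These genes (Pecam1, Vwf, Esam, Cd34, Eng, S1pr1, Flt1, Lyve1, Car4 and Bmpr2) had 4 calls lower, 1 higher and 5 not called, with a median difference of -0.56. The other 26 had 21 calls lower, 0 higher and 5 not called, with a median of -1.31. Of all rows, 22.6% were called lower. The split was made with results known, and neither the difference between both sets nor a part of expression in blood cells was tested.

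Cdh5, chosen after its values were seen, served as a yardstick for uneven change among the members. On each array its log2 value was subtracted from that of the 35 other members. Relative to Cdh5, 10 members were lower in SP without overlap (4.8% of all rows), namely Ednrb, Aplnr, Tmem100, Ptprb, Kdr, Tek, Tie1, Calcrl, Gpihbp1 and Clec14a. Another 10 were higher without overlap (71.3% of all rows), namely Pecam1, Cd34, Robo4, Mmrn2, Bmpr2, S1pr1, Prox1, Nos3, Lyve1 and Rasip1, and 15 overlapped. Prox1 is at background, so its relative value only restates the fall of Cdh5. Because Cdh5 itself differed by -0.99, a gene with little difference also comes out higher. S1pr1, for example, differed by -0.10, and by 0.89 relative to Cdh5. A higher relative value therefore need not mark a rise. The change relative to Cdh5 was -1.81 for Ednrb, -1.34 for Aplnr, -1.33 for Tmem100, -1.19 for Ptprb and -1.07 for Kdr, and 1.56 for Lyve1. These values carry no test.

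Arrays within a group differed in a shared way too. PBS replicates 1 and 2 were both above PBS replicates 3 and 4 in 35 of the 36 members, with Prox1 as the exception, against 23.9% of all rows. The mean over the members was 9.96, 10.17, 9.37 and 9.32 on PBS arrays 1 to 4, and 8.57, 8.75, 8.18 and 9.03 on SP arrays 1 to 4. In SP, replicate 4 was highest for 28 members (23.7% of all rows) and replicate 3 lowest for 25 (33.9% of all rows). All SP means were thus below all PBS means, but SP replicate 4 lay closer to PBS replicate 4 than to SP replicate 3. PBS replicate 2 and SP replicate 3 had the lowest weights when arrays were weighted by their agreement with the fit (0.464 and 0.197). With both left out, a choice made after seeing the data, 22 members were called lower, 14 of them by at least 2-fold.

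Marker lists of some other lung cells were lower as well, and those of others were not. Over all rows, 22.6% were called lower and 21.5% higher. Of the 7 neutrophil markers, 3 were called lower and 0 higher (median -0.30), with list means of 12.95 to 13.17 in PBS and 12.43 to 13.02 in SP. In PBS, 6 of the 7 had the opposite order to the members, with replicates 1 and 2 below replicates 3 and 4 (share of all rows not computed). The 2 with the highest mean intensity, which served only to choose the markers to print, were Retnlg (-0.47, adjusted p = 0.0418) and S100a8 (-0.18, adjusted p = 0.211). Epithelial lists were lower, with 5 of 7 alveolar type 1, 7 of 9 alveolar type 2, 5 of 5 club and 8 of 8 ciliated markers called, and medians of -1.75, -1.07, -1.95 and -2.66. Mesothelial markers fell in 4 of 4 cases (median -3.70), with means of 10.64 to 11.16 in PBS and 5.99 to 7.88 in SP. The order of the members within PBS, with replicates 1 and 2 above 3 and 4, was found in 23.9% of all rows. It was found in 6 of 7 alveolar type 1 and 8 of 9 alveolar type 2 markers, but in 3 of 5 club, 1 of 8 ciliated and 0 of 4 mesothelial markers. Of the cells near vessels, 7 of 8 pericyte, 7 of 10 fibroblast, 3 of 6 smooth muscle and 5 of 11 platelet markers had it. Means of the alveolar type 1 list were 9.41 to 10.51 in PBS and 8.12 to 9.06 in SP.

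Cells that lie against vessels varied more, beside 22.6% of all rows called lower and 21.5% called higher. Of 8 pericyte markers 5 were called lower (median -0.72, means 6.12 to 6.74 in PBS and 5.54 to 5.92 in SP), and by the same choice Pdgfrb (-1.29, adjusted p = 0.035) and Notch3 (-1.69, adjusted p = 0.00111) are given. Of 10 fibroblast markers 4 were called lower (median -0.78, means 8.47 to 9.25 and 7.11 to 9.01), and of 6 smooth muscle markers 0 (median -0.23, means 7.30 to 8.14 and 6.58 to 8.09). Of 11 platelet markers 2 were called lower (median -0.18, means 6.08 to 6.58 and 5.96 to 6.15), including Ppbp (-2.13, adjusted p = 0.00697), but not Pf4 (-0.18, adjusted p = 0.69). B cell markers fell in 5 of 5 cases (median -1.76), while of 6 T cell markers 1 was called higher. Alveolar macrophage markers were called lower in 4 and higher in 1 of 8, and monocyte and interstitial macrophage markers lower in 0 and higher in 4 of 9 (median 0.73, means 7.79 to 8.68 and 7.92 to 9.38). The part of other cell types in the differences of the members was not tested. Fewer endothelial cells, less RNA per cell and a larger share of RNA from other cells cannot be told apart.

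**Figure D3:**
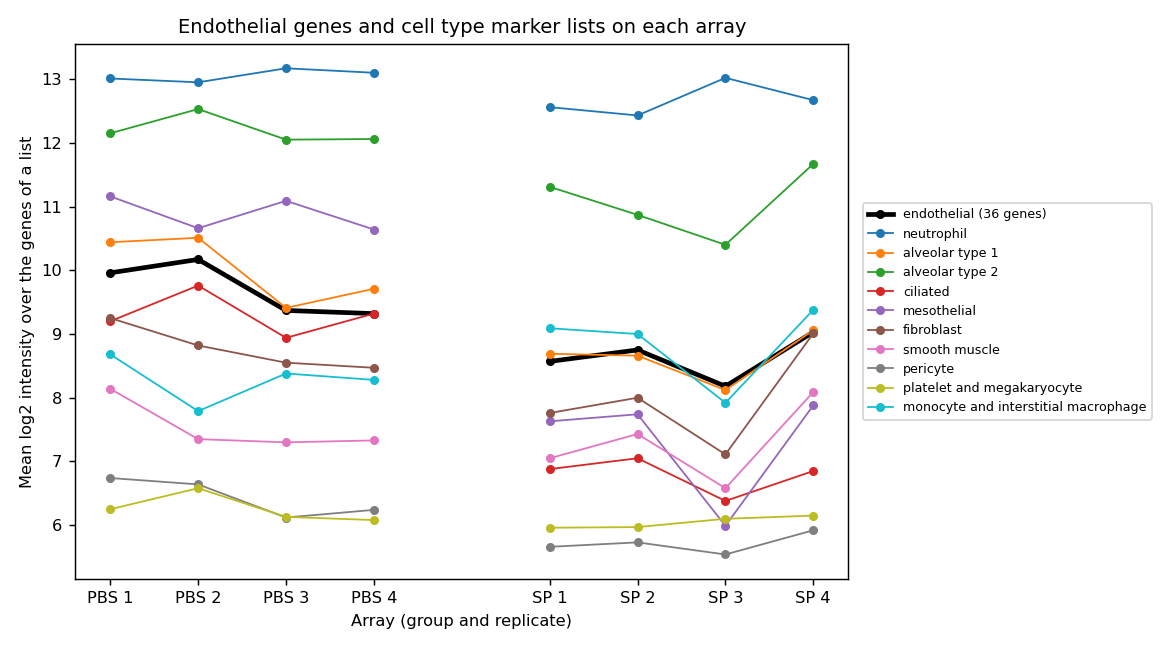
Mean log2 intensity (y axis) over the genes of the endothelial list and of 10 cell type lists on each array (x axis), where lines only join the points of a list within a group. The endothelial mean is 9.32 to 10.17 in PBS and 8.18 to 9.03 in SP, while the neutrophil mean stays between 12.43 and 13.17.

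The partners of the receptors were read in lists of 85 further vessel genes, of which 81 had a named row. Of these, 40 were called lower (22.6% of all rows) and 14 higher (21.5% of all rows), with a median of -0.65. By at least 2-fold, 32 were lower (11.3% of all rows) and 9 higher (6.37% of all rows). With arrays set equal on the neutrophil markers, 22 were called lower, 13 by at least 2-fold, and 14 rather than 9 were higher by at least 2-fold. Shares of all rows with that scaling are not given here. The 5 largest falls were those of Cavin2, Hey1, Jag2, Ushbp1 and Cav2. Cavin2, a coat protein of caveolae, lay at 10.40, 10.39, 9.56 and 9.63 in PBS and 7.18, 7.50, 5.49 and 8.10 in SP (-2.93, adjusted p = 0.00237), and Cav2, a caveolin, at 11.26, 11.42, 10.48 and 10.75 in PBS and 8.73, 8.73, 7.87 and 8.99 in SP (-2.40, adjusted p = 0.000308). Hey1, a target of Notch, lay at 9.84, 10.02, 9.14 and 9.43 in PBS and 6.94, 6.92, 6.36 and 7.57 in SP (-2.66, adjusted p = 0.000151), and Jag2, a Notch ligand, at 7.82, 8.39, 7.54 and 7.60 in PBS and 5.37, 5.30, 4.75 and 5.76 in SP (-2.54, adjusted p = 0.000113). Ushbp1, an endothelial-enriched gene, differed by -2.51 (adjusted p = 0.000199). Of the 14 genes of Notch, ephrin and guidance signalling, 8 were called lower, 1 higher and 5 were not called. The Notch ligands Dll4 (-1.37, adjusted p = 0.00539) and Jag1 (-1.31, adjusted p = 0.0235) were lower and Dll1 was higher (0.81, adjusted p = 0.0232), while the receptor Notch4 (-0.80, adjusted p = 0.0654) and the targets Hey2 (-0.30, adjusted p = 0.15) and Heyl (-0.29, adjusted p = 0.354) were not called. Efnb2, the gene of ephrin-B2, was lower (-1.90, adjusted p = 0.00058), as was that of its receptor, Ephb4 (-1.17, adjusted p = 0.00947).

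Of 15 measured genes for protein ligands of the members' receptors, 7 were called lower (22.6% of all rows) and 4 higher (21.5% of all rows). The other 4 were not called. Edn1, which encodes the vasoconstrictor endothelin-1, lay at 9.18, 8.54, 8.64 and 8.71 in PBS and 11.15, 10.94, 11.80 and 11.66 in SP (2.62, adjusted p = 5.35e-05), against a fall of its receptor gene Ednrb. Edn3 lay near background and was not called (-0.40, adjusted p = 0.0973). Adm, the gene of adrenomedullin, lay at 6.30, 5.71, 5.27 and 5.85 in PBS and 7.31, 7.80, 7.63 and 9.72 in SP (2.33, adjusted p = 0.0062), against lower Calcrl and Ramp2, and SP replicate 4 stood far above the other SP arrays. Angpt2, the angiopoietin that endothelium releases on activation and that can oppose TIE2, lay at 6.47, 6.36, 6.15 and 5.86 in PBS and 8.01, 8.54, 8.12 and 8.46 in SP (2.07, adjusted p = 4.76e-05), while Angpt1, the activating ligand, differed by -1.03, adjusted p = 0.021. Apln, the apelin gene, was lower together with its receptor gene (-0.58, adjusted p = 0.0352). Sphk1, a kinase that makes sphingosine-1-phosphate, had the largest rise of these lists, lying at 7.61, 7.67, 7.06 and 7.73 in PBS and 10.22, 10.53, 10.21 and 10.45 in SP (2.83, adjusted p = 1.01e-05). Sphk2 (1.07, adjusted p = 0.000425) and S1pr2, another receptor for that lipid (2.13, adjusted p = 0.000349), were also higher, while S1pr1 was not called. Neutrophils and monocytes can make several of these ligands, and the cell of origin cannot be read from a bulk value.

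The VEGF ligands differed among themselves. Vegfa, at 10.25, 10.46, 10.12 and 10.06 in PBS and 10.50, 10.41, 10.17 and 10.44 in SP, was among those not called (0.16, adjusted p = 0.265), as was Vegfc (-0.25, adjusted p = 0.134). Vegfb (-0.87, adjusted p = 0.00325) and Vegfd (-1.26, adjusted p = 0.0263) were lower, and Pgf, placental growth factor, was higher (1.36, adjusted p = 0.011). Of the co-receptors Nrp1 was lower (-1.81, adjusted p = 0.00881) and Nrp2 was not called (0.63, adjusted p = 0.324). Gdf2, the gene of BMP9, was called lower (-0.38, adjusted p = 0.0192) and Bmp10 was not called (0.17, adjusted p = 0.122), but both lay between 4.20 and 5.30, near background. Bmp4 (-1.82, adjusted p = 0.0045) and Bmp6 (-1.62, adjusted p = 0.00446), whose products can also use BMPR2, were lower. Slit2 (-1.08, adjusted p = 0.0902) and Slit3 (-0.81, adjusted p = 0.174), ligands of the roundabout family, were not called, and Unc5b, whose product binds ROBO4, was lower (-0.99, adjusted p = 0.000684). Lpl, the lipase that GPIHBP1 carries, was not called (0.07, adjusted p = 0.826).

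**Figure D4:**
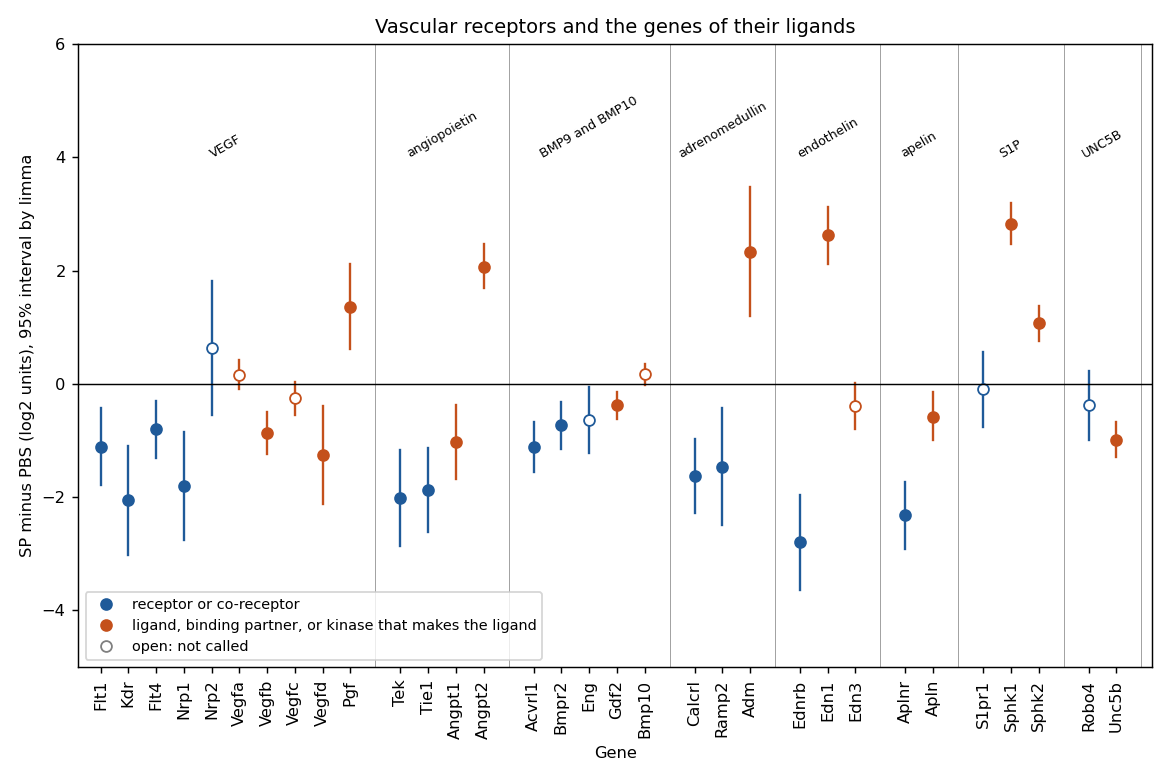
SP minus PBS difference in log2 units (y axis) with 95% intervals from limma for vascular receptors (blue) and for their ligands, binding partners or ligand-making kinases (orange), grouped by ligand system, with open points where the gene was not called. Ednrb lies at -2.80 beside Edn1 at 2.62, and Tek at -2.02 beside Angpt2 at 2.07.

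Inflamed endothelium puts adhesion molecules on its surface to hold leukocytes. Of 3 measured genes for them, 2 were called higher (21.5% of all rows) and 1 was not called. Sele, E-selectin, which is largely restricted to activated endothelium, lay at 5.99, 5.20, 5.74 and 5.83 in PBS and 7.52, 7.43, 7.86 and 9.17 in SP (2.30, adjusted p = 0.00159). All SP arrays exceeded all PBS arrays, and the PBS values were close to background. Icam1, which many cell types make, differed by 1.96, adjusted p = 1.53e-05. By flow cytometry, the study also reported more ICAM-1 protein on lung neutrophils of infected mice. Selp, P-selectin of endothelium and platelets, was not called (1.02, adjusted p = 0.092).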

How the data were processed

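Messenger RNA of 8 lung neutrophil samples, 4 PBS and 4 SP, was read on 1 array each, and groups and replicate numbers followed the sample titles. The deposited log2 values had been made by the authors with robust multi-array averaging (Affymetrix Expression Console and Partek, per the submitters' processing notes), with background correction, GC and sequence adjustment, quantile normalization, median polish and custom probe-to-gene mappings. Values are therefore relative within an array, and bright signals may be compressed. The genome build of the table is not given in the sources used here, so genes have no coordinates. MicroRNA arrays of the study were not analysed here.

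RefSeq transcript accessions were matched to symbols of GRCm38.p6, which named 19915 of 24625 rows (80.9%). Rows were compared by limma 3.58.1 (R 4.3.3; lmFit and eBayes, two-sided, no covariates) with Benjamini-Hochberg adjustment over all rows, at an adjusted p of 0.05 and, for the stricter count, 1 log2 unit (2-fold). The code was tested on simulated data. Lists of members, pathway genes and cell type markers were chosen with earlier results of these data known, so no list was tested as a set and no p was adjusted over a list alone. Of the fixed lists, Apela, Procr, Ccl21a, Vcam1 and Ly6g were among the genes with no row matched to their symbol. They may lie on rows without a symbol and were not analysed here. In every role, each rise, each member not called and the 3 largest falls are given with values on all arrays. Of the pathway lists, the 5 largest falls and rises and the ligands of the members' receptors are named, and of cell type lists at most the 2 brightest genes. Alternatives were a block for the replicate number, weights for arrays, the methods' t-test, a robust prior, arrays centred on the median or set equal on neutrophil markers, another quantile normalization, dim rows left out, 1 row per symbol and each array left out in turn. Figures were drawn with matplotlib 3.10.9 in Python 3.11.15. The number of arrays limits the precision.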

Additional observations from a re-analysis of the deposited data

Results flagged for a closer look

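Single arrays stood apart from the other 3 of their group in 4 of 72 tests of a member within a group, where the gap to the nearest array, over the range of the group, passed Dixon's 95% limit. Chance flags about 1 in 20 such groups, or 3.6 of 72. The first was Podxl in SP replicate 3, at 7.78 with the nearest SP array at 9.12. The others were Vwf in SP replicate 3 (8.30, nearest 9.79), Erg in SP replicate 4 (7.66, nearest 7.35) and Car4 in SP replicate 4 (10.84, nearest 9.95). All 4 lay in the 2 SP arrays that held the lowest and the highest member means.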

How the results depend on the processing

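Of 647 comparisons of a member between the fit reported and an alternative, 579 kept direction and side of the threshold, 41 lost the call, 7 gained one and 20 changed sign. The call held in every alternative run for 15 of the 26 called members, and the direction for 29 of the 36. Members called higher (1) became 2 with array weights, 2 with arrays centred on the median and 2 with arrays set equal on neutrophil markers (Lyve1 and Rasip1), and 0 with quantile normalization once more, the replicate block or the methods' t-test. Members called lower (25) were 15 with arrays set equal on neutrophil markers, those lower by at least 2-fold (20) were 11, pathway genes lower (40) were 22 and pathway genes lower by at least 2-fold (32) were 13. That last count was 19 with arrays centred, 20 with quantile normalization once more and 19 with PBS 2 and SP 3 both left out. Pathway genes higher by at least 2-fold (9) were 14 with arrays centred or set equal on neutrophil markers. Shares of all rows called under the alternatives are not given here. Leaving out 1 array at a time gave 19 to 26 members lower, 16 to 23 lower by at least 2-fold, 0 to 1 higher and 0 to 0 higher by at least 2-fold, and a median from -1.27 to -0.98. Pathway genes ranged from 29 to 42 lower, 22 to 37 lower by at least 2-fold, 12 to 16 higher and 9 to 12 higher by at least 2-fold. The median difference of members was -0.78 with both arrays left out, -0.91 with weights, -0.85 with arrays centred (median of all rows 0.38), -0.75 with arrays set equal on neutrophil markers (0.49), -1.19 with quantile normalization once more (0.02) and -1.16 without dim rows (-0.15), which also drop Prox1.

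Signs changed only in members that were not called. With both arrays left out, Mmrn2 was 0.05 and S1pr1 0.21, with array weights 0.02 and 0.11, with arrays centred 0.11 and 0.18, and with arrays set equal on neutrophil markers 0.21 and 0.29. Mmrn2 was 0.18 with quantile normalization once more, and S1pr1 ran from -0.28 without PBS replicate 3 to 0.14 without PBS replicate 2. Prox1 was 0.11 with arrays centred and 0.21 with arrays set equal on neutrophil markers, which also put Pecam1 at 0.04 and Robo4 at 0.01. With 1 array left out, Vwf ran from -0.13 (without SP replicate 2) to 0.47 (without SP replicate 3), and Nos3 from -0.06 (without SP replicate 4) to 0.66 (without SP replicate 3). The cause of these changes was not tested.

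With the replicate number as a block, 25 members were called lower and 0 higher, as Lyve1 lost its call (adjusted p = 0.0777). Deviations of same-numbered samples correlated at 0.016, 0.03, 0.35 and -0.274, and those of differently numbered samples at -0.363 to 0.283. The labels give no more than a replicate number. These correlations cannot show whether same-numbered samples were handled together. The methods' t-test called 22 members lower, and Erg (adjusted p = 0.0509), Podxl (0.0678) and Ramp2 (0.0682) were those it lost, as was the rise of Lyve1 (0.0607).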

Other observations

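Among the 81 pathway genes, 59 had PBS replicates 1 and 2 above PBS replicates 3 and 4, as 35 of the 36 members did. Of all rows, 23.9% had this order. The opposite order was found in 11, as in 6 of 7 neutrophil markers, and its share of all rows was not computed. The 11 were Notch1, Gdf2, Bmp10, Id1, Sphk2, Fli1, Klf2, Hhex, Stab2, Bmx and Selp, of which Gdf2, Bmp10 and Stab2 lay near background. Bmx, a kinase of arterial endothelium that myeloid cells also make, lay at 9.56, 9.01, 10.34 and 10.28 in PBS and 7.32, 7.54, 8.60 and 7.85 in SP (-1.97, adjusted p = 0.00299). Hhex, a homeobox factor of endothelium and of blood cells, lay at 8.19, 7.70, 8.51 and 8.22 in PBS and 6.58, 7.20, 6.99 and 7.26 in SP (-1.15, adjusted p = 0.00237). Notch1 lay at 11.28, 11.24, 11.62 and 11.52 in PBS and 10.69, 10.52, 11.32 and 10.88 in SP (-0.56, adjusted p = 0.0319). These 3 genes were lower in SP, as most members were, while their order within PBS was that of the neutrophil list. Over all rows, PBS replicate 2 was the lowest PBS array in 36.3% and PBS replicate 3 the highest in 32.8%. The cells that made these transcripts were not tested. Among the rest of the 11, Gdf2 was also called lower. Id1 (0.49, adjusted p = 0.021), Klf2 (0.61, adjusted p = 0.0305) and Sphk2 (1.07, adjusted p = 0.000425) were called higher. Bmp10, Fli1, Stab2 and Selp were not called.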
